A study of Mus musculus with 36 samples.

Results

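Chromatin accessibility was described at Cd4, Cd8a, Cd8b1, Zbtb7b, Runx3 and Runx1, the 6 genes at the centre of the choice between the CD4 and CD8 T cell lineages. A peak was assigned to one of them when its midpoint was nearest to one of their protein-coding transcription start sites (TSS) in GENCODE on GRCm39, or when it overlapped the gene body. This gave 119 of 71509 peaks, of which 8 belonged to Cd4, 2 to Cd8a, 5 to Cd8b1, 4 to Zbtb7b, 37 to Runx3 and 63 to Runx1. Of the Cd4 peaks, 2 at the end of the gene body are nearer to a start of Gpr162, and 1 of these lies over that start. The data were ATAC-seq read counts, in which a transposase cuts open DNA, from mouse CD4+ T cells that lacked the heterochromatin protein HP1α (gene Cbx5) or HP1γ (gene Cbx3) and from their wild-type (WT) littermates. The 36 libraries formed 12 groups of 3, for each line and genotype as naive cells, conventional T cells (Tconv) and Tconv transferred together with regulatory T cells (Treg).

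Mice were 6 to 12 weeks old, sex-matched littermates of a mixed 129/Sv and C57BL/6 background. In the HP1α line the knockout (KO) was a germline deletion made with CMV-cre, and the controls carried 2 intact alleles. In the HP1γ line a floxed gene was deleted by Cd4-cre, whose Cre is driven in T cells, and the controls were floxed mice without the transgene, so that HP1γ genotype and transgene cannot be told apart. Naive CD4+ T cells were enriched from spleen by negative selection. Tconv were recovered by sorting Vβ6+ donor cells from the spleen of lethally irradiated B6 hosts 3 weeks after those hosts had received the T cells with B6 and B6D2F1 bone marrow. Where Treg were added, they had been expanded ex vivo from Foxp3-Thy1.1 mice. Of the HP1α libraries with Treg the study kept 2 WT and 1 KO, and left out 3 for low enrichment at peaks and TSS. HP1α values with Treg are from the kept libraries unless stated.

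CD4 and CD8 are coreceptors that help the T cell receptor bind MHC class II and class I, and CD8 is built from chains encoded by Cd8a and Cd8b1. Zbtb7b encodes ThPOK, the transcription factor that commits thymocytes to the CD4 lineage and holds back Runx3 and the Cd8 genes. Runx3 drives the CD8 lineage and, like Runx1 at an earlier thymic stage, binds the silencer in the first intron of Cd4. Runx factors bind DNA at the core motif TGTGGT or TGCGGT.

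Libraries held 1.49 to 96.8 M reads in peaks (M, 1e6), with the shallowest among the HP1α libraries with Treg. All 6 T cell marker genes (Cd3e, Cd3d, Cd3g, Cd2, Cd5, Cd28) had a peak at a TSS, with median levels of 11.4 to 27.7 TMM-scaled counts per M reads and per kilobase of peak (CPM per kb) against a median of 4.1 over all peaks. Of the 16 markers of B, myeloid, NK and erythroid cells, 9 had no TSS peak, among them Cd79a, Ms4a1, Csf1r, Lyz2 and Ncr1, and the 7 that had one reached medians of 2.13 to 10.2. The TSS peaks of Cbx5 and Cbx3 were not called in any KO, but since the position of the deleted exons within these genes is not given here, this does not check the labels.

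Stretches at 5 of the peaks the results turn on are shown from GRCm39, with each TGTGGT or TGCGGT, or its reverse complement ACCACA or ACCGCA, in capitals. The first is the strand-matched sequence just before the canonical Cd4 start (chr6:124865185-124865484, minus strand), inside one of the 2 Cd4 peaks that were called higher in the HP1γ KO. The second is the centre of an upstream Cd4 peak that was not raised (chr6:124875162-124875461, plus strand).

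Cd4 promoter: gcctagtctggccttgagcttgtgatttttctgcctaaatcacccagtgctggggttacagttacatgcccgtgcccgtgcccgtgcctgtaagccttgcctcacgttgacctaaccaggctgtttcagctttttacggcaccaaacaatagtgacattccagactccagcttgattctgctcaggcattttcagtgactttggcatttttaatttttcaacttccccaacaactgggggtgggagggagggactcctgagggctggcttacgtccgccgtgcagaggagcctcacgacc
Cd4 unraised upstream peak: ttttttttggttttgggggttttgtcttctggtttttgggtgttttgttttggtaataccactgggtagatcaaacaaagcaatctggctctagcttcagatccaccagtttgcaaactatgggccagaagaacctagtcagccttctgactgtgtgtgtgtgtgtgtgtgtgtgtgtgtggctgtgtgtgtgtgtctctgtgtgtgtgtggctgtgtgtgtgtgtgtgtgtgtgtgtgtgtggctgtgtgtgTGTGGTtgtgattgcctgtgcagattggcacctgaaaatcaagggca

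The third is the sequence before the Cd8b1 start (chr6:71299472-71299771, plus strand), which lies in a peak that closed on activation. The fourth is the centre of the Runx3 intronic peak that opened with the smallest p (chr4:134896111-134896410, plus strand). The fifth spans the Runx1 intronic peak that was lower in HP1γ KO with the smallest p (chr16:92590766-92591065, plus strand).

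Cd8b1 promoter: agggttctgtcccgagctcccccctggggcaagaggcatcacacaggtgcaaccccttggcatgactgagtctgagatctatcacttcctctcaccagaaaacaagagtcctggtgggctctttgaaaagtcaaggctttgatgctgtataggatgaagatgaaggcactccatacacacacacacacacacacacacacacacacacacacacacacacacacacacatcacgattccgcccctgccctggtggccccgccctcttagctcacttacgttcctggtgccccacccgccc
Runx3 intronic peak: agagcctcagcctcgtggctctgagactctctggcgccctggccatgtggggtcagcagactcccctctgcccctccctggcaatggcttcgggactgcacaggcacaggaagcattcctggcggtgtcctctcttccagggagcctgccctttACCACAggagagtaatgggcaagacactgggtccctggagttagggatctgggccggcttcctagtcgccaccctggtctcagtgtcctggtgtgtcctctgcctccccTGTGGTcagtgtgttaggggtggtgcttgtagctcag
Runx1 intronic peak: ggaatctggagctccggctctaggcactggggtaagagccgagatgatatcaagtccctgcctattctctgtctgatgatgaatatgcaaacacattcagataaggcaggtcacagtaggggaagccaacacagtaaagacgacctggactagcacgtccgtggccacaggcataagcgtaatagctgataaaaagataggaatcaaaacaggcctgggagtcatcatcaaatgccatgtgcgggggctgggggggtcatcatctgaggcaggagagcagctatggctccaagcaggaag

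The motif was found 2 times in the Runx3 stretch, 1 time in the upstream Cd4 stretch and not in the other 3. It was in the central 300 bases of 34.3% of all peaks and of 35.3% of the peaks of the 6 genes. By gene, this window held it at 5 of 8 Cd4 peaks, 17 of 37 Runx3 peaks, 18 of 63 Runx1 peaks, 2 of 5 Cd8b1 peaks and none of the 2 Cd8a or 4 Zbtb7b peaks. The window reaches beyond peaks shorter than 300 bases. The Cd4 peak at 23.12 kb, 200 bases wide, holds 0 matches itself and 1 in the window. Over their whole length, 3 of 4 Zbtb7b peaks held it, with 1, 1 and 8 matches, and the Cd4 peak over the canonical start, which has none in its centre, held 11, and longer peaks have more room for a match. These are matches of letters and say nothing on whether a factor was bound.

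In HP1γ KO cells, 2 Cd4 peaks were raised in every condition and the other 6 Cd4 peaks were not called in any, where 0.14% of all peaks were called for naive libraries, 3.35% for Tconv and 11.9% where Treg were added. The first, chr6:124856622-124866115, covers the canonical start and the first intron, and the second lies upstream with its midpoint at -13.01 kb. Distances are from the canonical start of each gene to the peak's midpoint, upstream being negative. The Cd4 sequence that the Cd4-cre transgene may carry is not given in the sources used here. Reads from a transgene copy and reads from the gene itself cannot be told apart in these counts, so the ratios at both peaks are ratios of reads and not of accessibility of the gene alone.

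At the peak over the start, naive HP1γ KO libraries reached 66.7, 70.5 and 69.7 CPM per kb and their WT 10.1, 9.79 and 10.5. In Tconv the KO values were 63.2, 69.0 and 73.9 against 11.8, 11.2 and 12.2 in WT. With Treg they were 63.4, 66.5 and 50.5 against 7.85, 11 and 10.5. Every one of the 9 HP1γ KO libraries lay above every one of the 9 WT libraries. The KO to WT ratio was 6.8 (95% interval 5.86 to 7.89) for naive libraries, 5.87 (5.06 to 6.81) for Tconv and 6.05 (5.19 to 7.04) where Treg were added, with edgeR quasi-likelihood adjusted p of 1.43e-11, 5.76e-11 and 6.93e-11. The intervals of the 3 ratios overlap.

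At the upstream peak the naive KO libraries reached 32.6, 33.9 and 31.2 CPM per kb against 9.39, 9.63 and 10.8 in WT. In Tconv the values were 23.6, 32.6 and 32.1 against 10.8, 15 and 12.7, and with Treg 33.1, 31.1 and 28.4 against 9.35, 9.61 and 14.1. KO and WT libraries did not overlap here either. The ratios were lower than at the start, at 3.26 (2.65 to 4.02), 2.3 (1.86 to 2.83) and 2.76 (2.21 to 3.45), with adjusted p of 5.9e-06, 0.000107 and 2.04e-05, and each of these intervals lies below that of the peak over the start in the same condition.

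The raised upstream peak sits between 2 peaks that were not raised, at gaps of 972 and 555 bases. The neighbour at -10.13 kb (chr6:124874767-124875856) had naive levels of 11, 11.2 and 12.1 CPM per kb in KO and 9.59, 12.1 and 10.3 in WT, a ratio of 1.08 (0.819 to 1.43, adjusted p 0.903). The neighbour at -15.78 kb had a naive ratio of 0.952 (0.803 to 1.13, adjusted p 0.902). Over the 6 other Cd4 peaks the log2 ratios ran from -0.563 to 0.114 among naive libraries, from -0.0469 to 0.0885 among Tconv and from -1.23 to 0.255 where Treg were added, with smallest adjusted p of 0.589, 0.737 and 0.0603. The second Cd4 start that had a peak, at -4.06 kb, was among these 6.

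In the HP1α line the same 2 peaks were not called. At the peak over the start the HP1α KO to WT ratio was 0.995 (0.845 to 1.17) for naive libraries, 1.06 (0.892 to 1.26) for Tconv and 1.29 (0.964 to 1.71, adjusted p 0.385) where Treg were added. At the upstream peak it was 1.02, 1.43 (1.18 to 1.74, adjusted p 0.364) and 0.959. Every HP1α library of both genotypes had at most 11.5 CPM per kb over the start. The HP1α KO cells were made with CMV-cre and their controls carry no Cd4-cre, so the lines differ in transgene as well as in the gene deleted, and a difference between the lines was not tested.

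**Figure D1:**
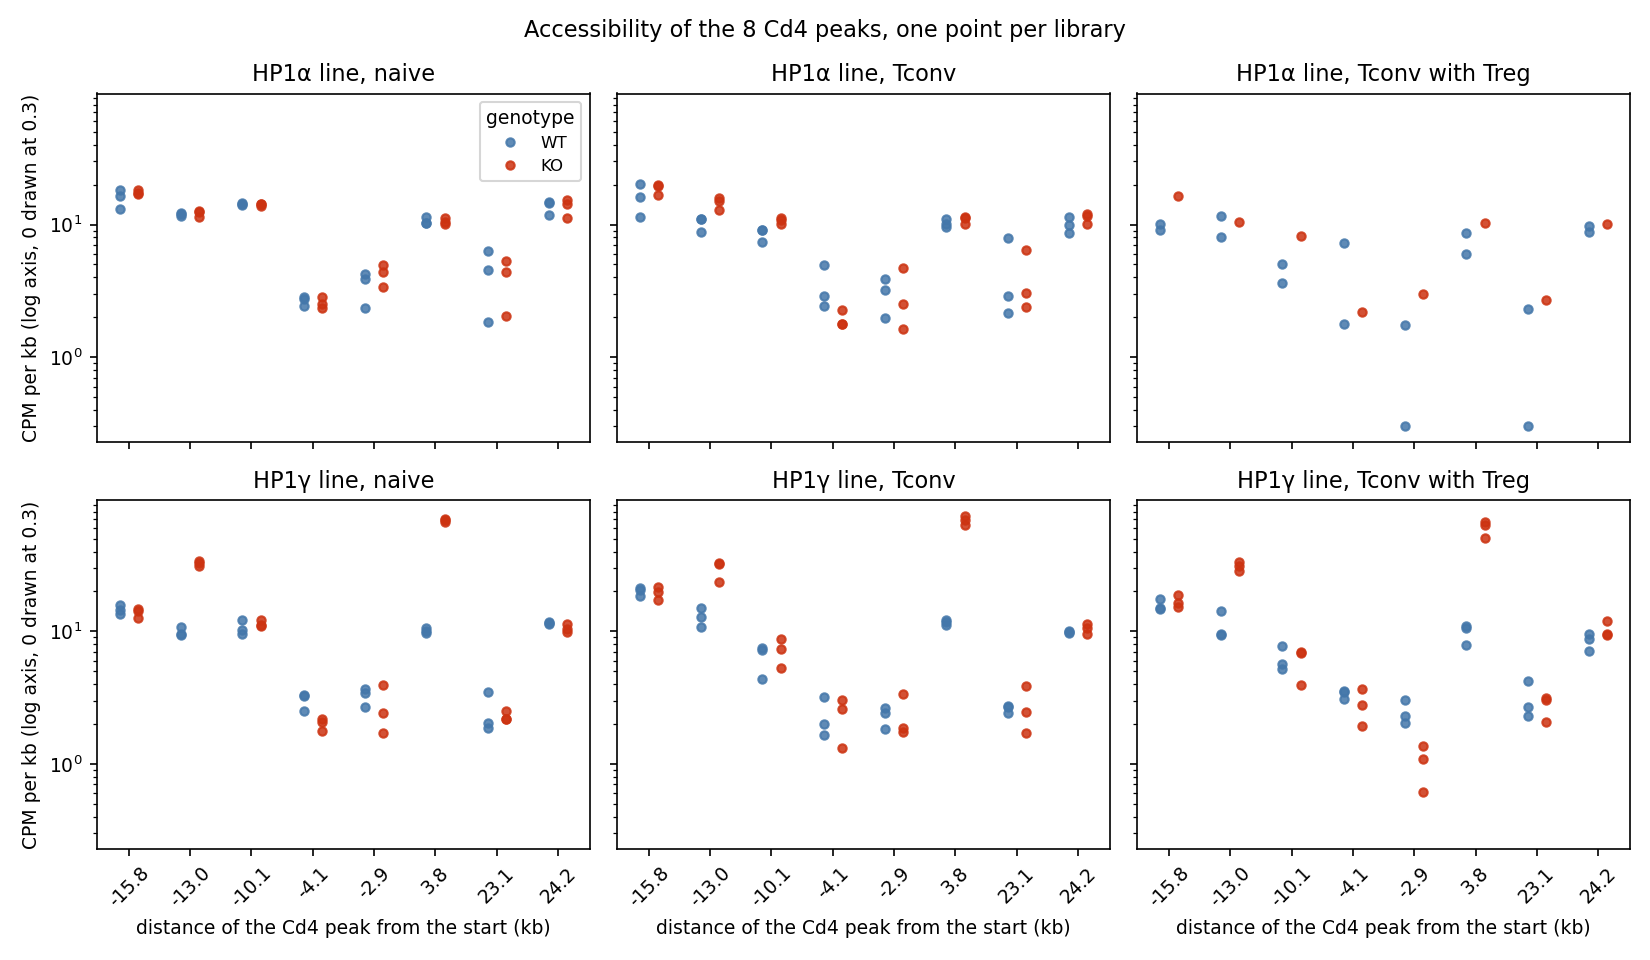
CPM per kb (log axis, zeros drawn at 0.3) of the 8 Cd4 peaks in order of their distance in kb from the canonical Cd4 start, one panel per line and condition, with one point per library, blue for WT and red for KO. In the HP1γ panels the 3 red points stand apart from the blue ones at the peak over the start and at the -13.01 kb peak, and no HP1α point at the peak over the start exceeds 11.5.

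In Tconv against naive cells of WT mice, a contrast called activation here, accessibility differed around Runx3, Runx1 and the Cd8 genes while no Cd4 peak was called. Naive cells were enriched by negative selection and Tconv were sorted as Vβ6+ donor cells. Transfer, activation and purification cannot be told apart in this contrast. The Cd4 peak at -10.13 kb missed only the size threshold. It had 14.6, 14 and 14.3 CPM per kb in naive HP1α WT cells and 9.08, 9.12 and 7.43 in Tconv, without overlap, a log2 change of -0.68 (adjusted p 0.000254), and -0.73 (adjusted p 0.00388) in the HP1γ WT line. In the HP1α WT line 60 of 119 peaks were called, 31 higher and 29 lower, where 42.5% of all peaks were called (24.9% higher, 17.5% lower). In the HP1γ WT line 73 were called, 38 higher and 35 lower, with 46.5% of all peaks called (24.5% and 22%). The 2 lines share no library, and 31 of the higher and 28 of the lower peaks were called in both, which is 100% and 96.6% of the HP1α calls and 81.6% and 80% of the HP1γ calls. Over all peaks these shares were 86.3% and 93.3%, and 87.8% and 74.5%.

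Accessibility of the Cd8 genes fell. At the Cd8b1 start (chr6:71298901-71300390), a peak that also covers a start of Smyd1, naive HP1α WT libraries had 22.6, 23.0 and 20.6 CPM per kb and naive HP1γ WT libraries 21.9, 19.2 and 20.0. Tconv had 2.14, 3.88 and 5.92 in the former and 1.96, 1.68 and 2.83 in the latter. The groups did not overlap, and the log2 change was -2.91 (SE 0.24, adjusted p 1.7e-08) and -3.26 (SE 0.16, adjusted p 6.5e-12). In naive cells this peak was higher per kilobase than the peak over the Cd4 start, and in Tconv it was lower, in each of the WT libraries.

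The exonic Cd8a peak (chr6:71353521-71354150) had 6.13, 8.12 and 6.14 CPM per kb in naive HP1α WT cells and 7.67, 5.62 and 6.71 in naive HP1γ WT cells. In Tconv it had 0.386, 1.85 and 1.84, and 0.165, 0.19 and 0.896, the last 3 resting on 7, 7 and 29 reads. The log2 change was -3.08 (adjusted p 8.39e-06) and -4.09 (adjusted p 1.41e-08). No peak overlapped a Cd8a start. In all, 1 of 2 Cd8a and 3 of 5 Cd8b1 peaks were called lower in the HP1α line and all 7 in the HP1γ line, with none higher.

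In bulk samples, fewer cells that have a peak open and less accessibility per cell cannot be told apart. Naive cells were enriched by negative selection, while Tconv were sorted on CD4 and Vβ6. The share of CD8 T cells left in either preparation was not measured here. The summed levels of the other cell types moved between naive and Tconv too. Over the WT groups of both lines, the B cell sum was 2.05 to 3.33 CPM per kb in naive cells and 3.89 to 5.91 in Tconv. It rests on Pax5 alone. The NK cell sum, which rests on Klrd1, was 5.73 to 6.74 and 3.12 to 6.21. The erythroid sum was 11.2 to 13.9 and 4.85 to 8.67, and the myeloid sum 24.6 to 33.1 and 20.6 to 27.6. Naive cells and Tconv did not overlap in the B cell and erythroid sums. Their part in the Cd8 result was not tested.

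Zbtb7b gave a split picture. Its widest peak (chr3:89292381-89304480), over the canonical start, was not called, with log2 changes of -0.14 and 0.26. The peak over an internal start (chr3:89288921-89290570) fell in both lines. It had 14.0, 14.9 and 13.9 CPM per kb in naive HP1α WT cells and 6.19, 7.76 and 5.7 in Tconv, a log2 change of -1.11 (adjusted p 3.36e-06). In the HP1γ line it had 12.3, 13.9 and 14.1 and then 7.14, 5.36 and 4.98, a log2 change of -1.19 (adjusted p 2.87e-06). The other 2 Zbtb7b peaks were not called.

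**Figure D2:**
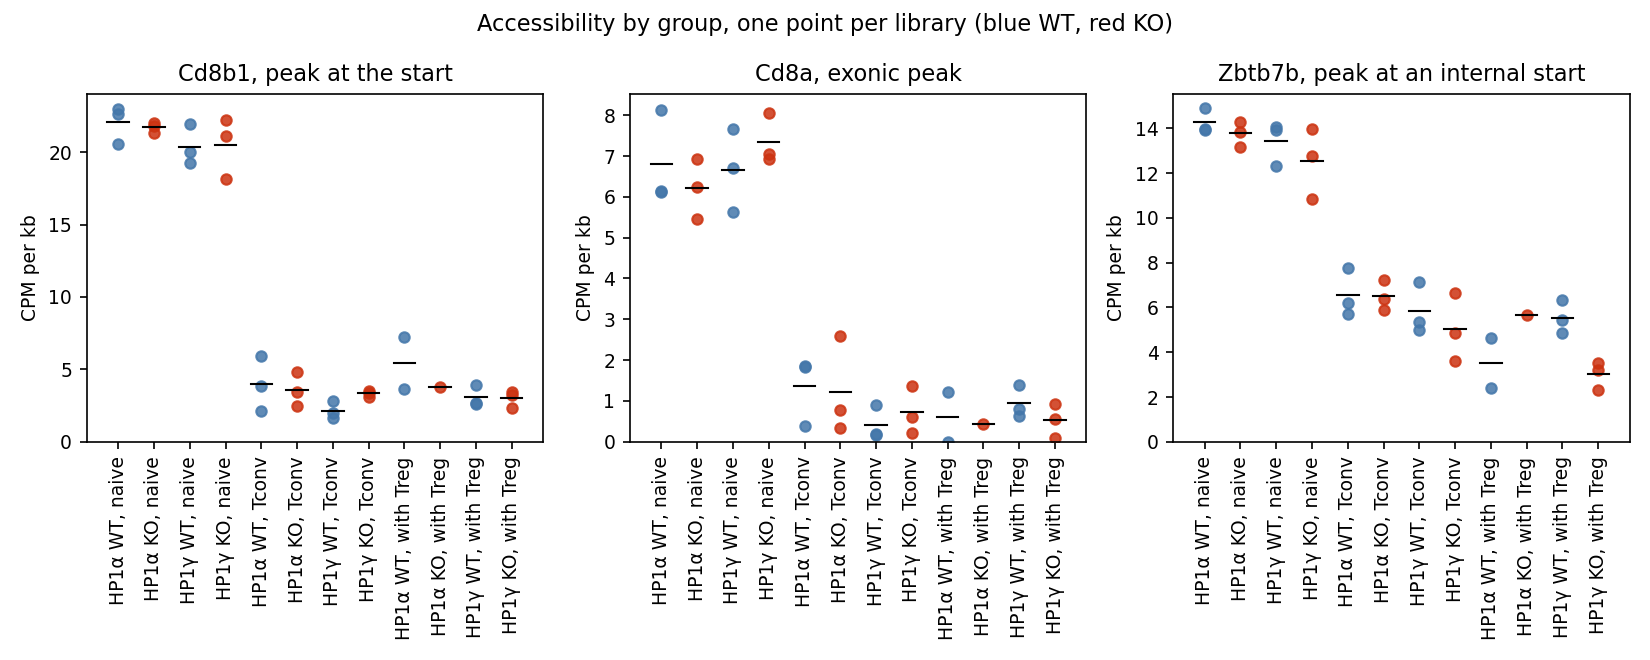
CPM per kb at the Cd8b1 start, the Cd8a exonic peak and the internal Zbtb7b start in each group, with one point per library, blue for WT and red for KO, and a line at the group mean. Naive libraries at the Cd8b1 start sit between 18.1 and 23.0, and Tconv libraries without Treg between 1.68 and 5.92.

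Runx3 gained accessibility. Of its 37 peaks, 19 were called higher and 0 lower in the HP1α line, and 23 higher and 1 lower in the HP1γ line, with median log2 changes over all 37 of 1.41 and 1.88 against -0.0324 and 0.0757 over all peaks. The calls lay away from the 2 starts, which are 31.9 kb apart. Neither the distal start peak (log2 change 0.19 and 0.65) nor the proximal one (0.11 and 0.83) was called. Upstream of the distal start 13 and 16 of 22 peaks were called higher, and beyond the proximal start 5 and 6 of 9, and the 1 lower peak lay between the starts.

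The intronic Runx3 peak at 16.45 kb (chr4:134895101-134897420) had the smallest p of the gene. It was nearly closed in naive cells, at 0.523, 0.566 and 0.621 CPM per kb in HP1α WT and 0.325, 0.312 and 0.309 in HP1γ WT. In Tconv it reached 10.5, 7.8 and 9.67, and 13.5, 17.2 and 15.8. The log2 change was 4.04 (95% interval 3.63 to 4.45, adjusted p 7.98e-11) and 5.62 (4.82 to 6.41, adjusted p 2.5e-10). The naive values rest on 53 to 120 reads a library, and the motif-bearing stretch printed for this peak is its centre.

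Runx1 moved in both directions by position. In the HP1α line 12 of its 63 peaks were called higher and 24 lower, and in the HP1γ line 15 and 26. Among the 23 peaks over 100 kb upstream, a limit chosen after the values were seen, 17 and 18 were called lower and 1 and 2 higher, with medians of -2.04 and -2.71. Among the other 40 peaks, 11 and 13 were called higher and 7 and 8 lower, with medians of 0.31 and 0.463. Peaks that far upstream were assigned by nearest TSS, and whether they regulate Runx1 is not known from these data.

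An example of the far stretch is the peak at -102 kb (chr16:92724441-92725700), which had 15.8, 15.4 and 14.1 CPM per kb in naive HP1α WT cells and 2.8, 3.59 and 6.08 in Tconv. In the HP1γ line it had 15.8, 16.1 and 16.6 and then 3.26, 2.23 and 3.26. The log2 change was -2.19 (adjusted p 8.24e-08) and -2.47 (adjusted p 8.94e-12). The Runx1 peak over the canonical start (chr16:92616751-92624426) was not called, with log2 changes of 0.25 and 0.64. The Runx1 peak over an internal start (chr16:92493271-92496330) was not called in either line.

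Both KO genotypes also moved on activation, with 65 peaks called in HP1α KO (33 higher and 32 lower, background 23.5% and 19%, 42.5% in all) and 61 in HP1γ KO (30 higher and 31 lower, background 22.4% and 20.6%, 43% in all). The Cd8b1 start fell by 2.71 and 2.64 on the log2 scale there, and the Runx3 peak at 16.45 kb rose by 3.96 and 4.37. No Cd4 peak was called in either.

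**Figure D3:**
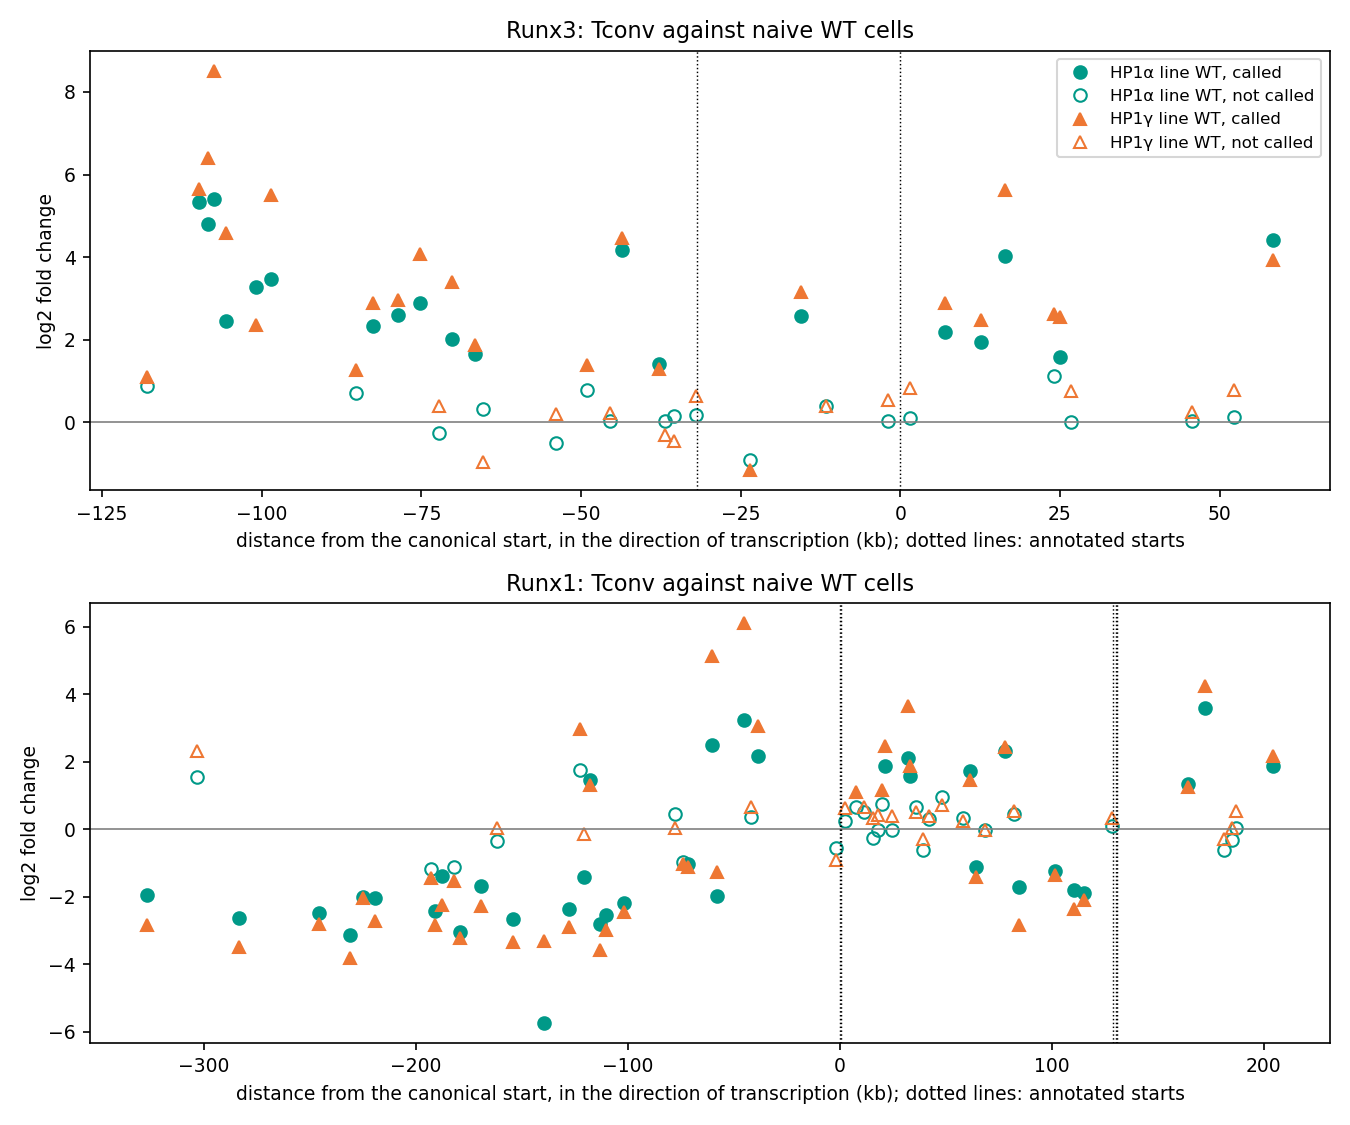
Log2 change of Tconv against naive WT cells at each Runx3 and Runx1 peak by distance from the canonical start in kb, one panel per gene, with circles for the HP1α line, triangles for the HP1γ line, filled marks for called peaks and dotted lines at annotated starts. Runx3 peaks lie mostly above 0 and Runx1 peaks over 100 kb upstream mostly below, and the fitted change of a peak with few or no reads in one condition depends on the prior count and is no measure of its size.

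Without Cd4, the HP1γ KO differed from WT at few Runx peaks, and those called were nearly all lower. In naive cells only the 2 Cd4 peaks were called (background 0.14%, 0.133% higher), and 0 of the other 111 by edgeR, although 5 of these had an unadjusted p under 0.05 and DESeq2 called 4 more, all higher. In Tconv 9 of 119 were called where 3.35% of all peaks were (1.69% higher, 1.66% lower). These were the 2 Cd4 peaks and 7 lower peaks, 1 at Runx3 and 6 at Runx1. With Treg 14 of 119 were called, a share of 11.8% against a background of 11.9% (6.48% higher, 5.38% lower). These were the 2 Cd4 peaks, 11 lower peaks, 4 at Runx3 and 7 at Runx1, and 1 higher at Runx1.

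The median log2 difference over the 111 peaks was -0.09 for naive libraries, -0.2 for Tconv and -0.366 where Treg were added, beside 0.0276, 0.0233 and -0.0193 over all peaks. For Runx3 it was -0.0385, -0.314 and -0.274, and for Runx1 -0.135, -0.19 and -0.37. The lower peaks of Tconv and of Tconv with Treg shared 4, which is 57.1% of the former and 36.4% of the latter, beside 42.7% and 13.2% over all peaks.

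The smallest p among the lower peaks in Tconv belonged to a Runx1 intronic peak at 32.12 kb (chr16:92590781-92591050). It had 4.84, 8.11 and 5.19 CPM per kb in WT and 1.72, 2.44 and 1.76 in KO, without overlap. The log2 difference was -1.66 (95% interval -2.23 to -1.09, adjusted p 0.00135), resting on 72 to 128 reads in WT and 23 to 31 in KO. With Treg it was -1.31 (adjusted p 0.0218), and in naive cells all 6 libraries were at 0.815 CPM per kb or below.

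A Runx1 upstream peak at -45.5 kb (chr16:92668151-92668920) had 6.69, 7.55 and 2.5 CPM per kb in WT Tconv and 0.946, 2.0 and 1.09 in KO Tconv. The log2 difference was -2.18 (-2.97 to -1.39, adjusted p 0.00196), and one WT library lay close to the KO range. With Treg its difference was not called, at an adjusted p of 0.0878. The third named peak, in the Runx1 gene at 164.3 kb (chr16:92458411-92459160), differed by -1.41 in Tconv (adjusted p 0.0115), where KO and WT overlapped, and by -1.41 with Treg (adjusted p 0.0369).

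With Treg the smallest p outside Cd4 was at the Runx3 upstream peak at -108.4 kb (chr4:134771011-134771890), with 5.17, 4.69 and 10.3 CPM per kb in WT and 3.56, 2.14 and 1.56 in KO. The log2 difference was -1.49 (SE 0.34, adjusted p 0.0048). In Tconv without Treg the same peak had 8.48, 10 and 7.14 in WT and 6.3, 3.48 and 3.56 in KO, also without overlap, and missed the size threshold. Runx1 at 101.4 kb (chr16:92521501-92521790) was lower by -1.67 (adjusted p 0.0113) and Runx3 at -45.5 kb (chr4:134834131-134834480) by -1.07 (adjusted p 0.00797). The peak called higher, Runx1 at -191.3 kb (chr16:92813791-92814830), had 4.2, 1.58 and 2.41 in WT and 3.5, 6.35 and 6.81 in KO, groups that overlap, with a log2 difference of 1.19 (adjusted p 0.0174).

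The peaks lower in HP1γ KO Tconv were set beside their change on activation in the HP1α WT line, which shares no library with this comparison. Of the 7, 6 were called higher there and 0 lower, and among all peaks called lower in HP1γ KO Tconv 70% were higher there. Of the 11 lower with Treg, 5 were called higher there, beside 38.2% of all peaks lower with Treg, 1 lower and 5 neither. These counts are too small to set the 6 genes apart from all peaks. At the 7, the HP1α KO to WT log2 difference in Tconv ran from -0.33 to 1.46 and none was called.

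No Cd8a, Cd8b1 or Zbtb7b peak was called between HP1γ KO and WT in any condition. The Cd8b1 start had 3.38, 3.53 and 3.12 CPM per kb in KO Tconv and 1.96, 1.68 and 2.83 in WT Tconv, without overlap, at a log2 difference of 0.64 (0.16 to 1.12, adjusted p 0.118). The Zbtb7b intronic peak at 9.13 kb (chr3:89290881-89292200) had 5.49, 5.0 and 6.76 in WT with Treg and 3.31, 4.57 and 2.79 in KO, a log2 difference of -0.74 (adjusted p 0.0124) that passed on p and not on size. The internal Zbtb7b start differed by -0.91 there (adjusted p 0.013).

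The calls outside Cd4 depended on the fit. With only the groups compared, the 2 Cd4 peaks alone were called in Tconv, and with Treg 4 peaks were, the 2 of Cd4 and Runx1 at 164.3 and 101.4 kb. The legacy quasi-likelihood method, that of the older edgeR release the study names, called 4 in Tconv, the 2 of Cd4 and Runx1 at 32.12 and 164.3 kb. Single libraries moved these counts too. Leaving out the third KO library of Tconv left 4 calls, the first WT library 5 and the third WT library 14, and among libraries with Treg the first KO library left 4 and the second WT library 5. With Treg the NK cell sum was 4.08 to 5.87 CPM per kb in WT and 1.89 to 2.43 in KO. The B cell sum was 3.45 to 7.1 and 7.1 to 9.35 and the myeloid sum 18.5 to 23.3 and 15.9 to 18.5, while the T cell and erythroid sums overlapped. In Tconv without Treg all sums overlapped, the NK cell sum at 4.53 to 6.21 in WT and 2.21 to 4.71 in KO. The myeloid sum there was 23.2 to 27.6 and 18.2 to 24.2. The part of these sums in the result was not tested.

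**Figure D4:**
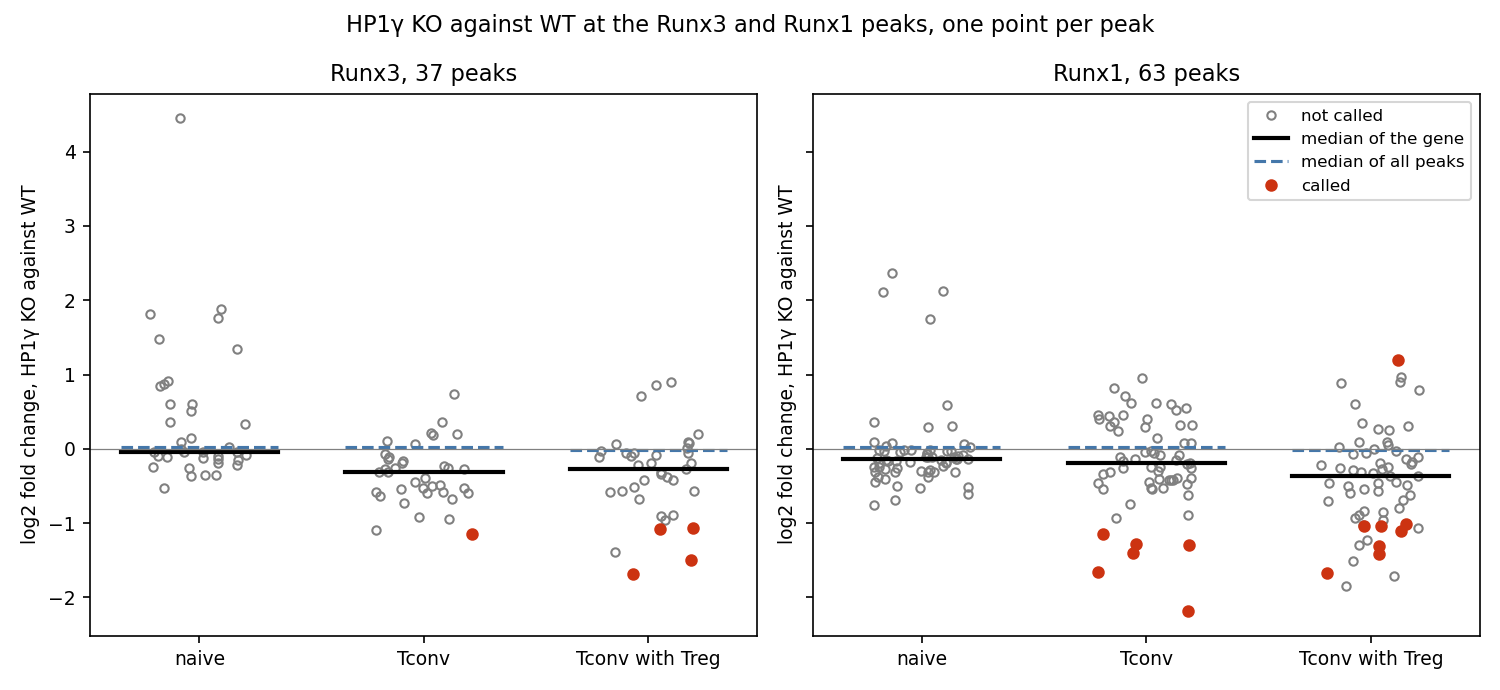
Log2 difference of HP1γ KO against WT at each Runx3 and Runx1 peak in naive cells, Tconv and Tconv with Treg, one point per peak, called peaks in red, with a black line at the gene's median and a dashed line at that of all peaks. Called peaks lie below 0 except 1 Runx1 peak, at -191.3 kb, with Treg, and the high open points of naive cells rest on few reads.

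**Figure D5:**
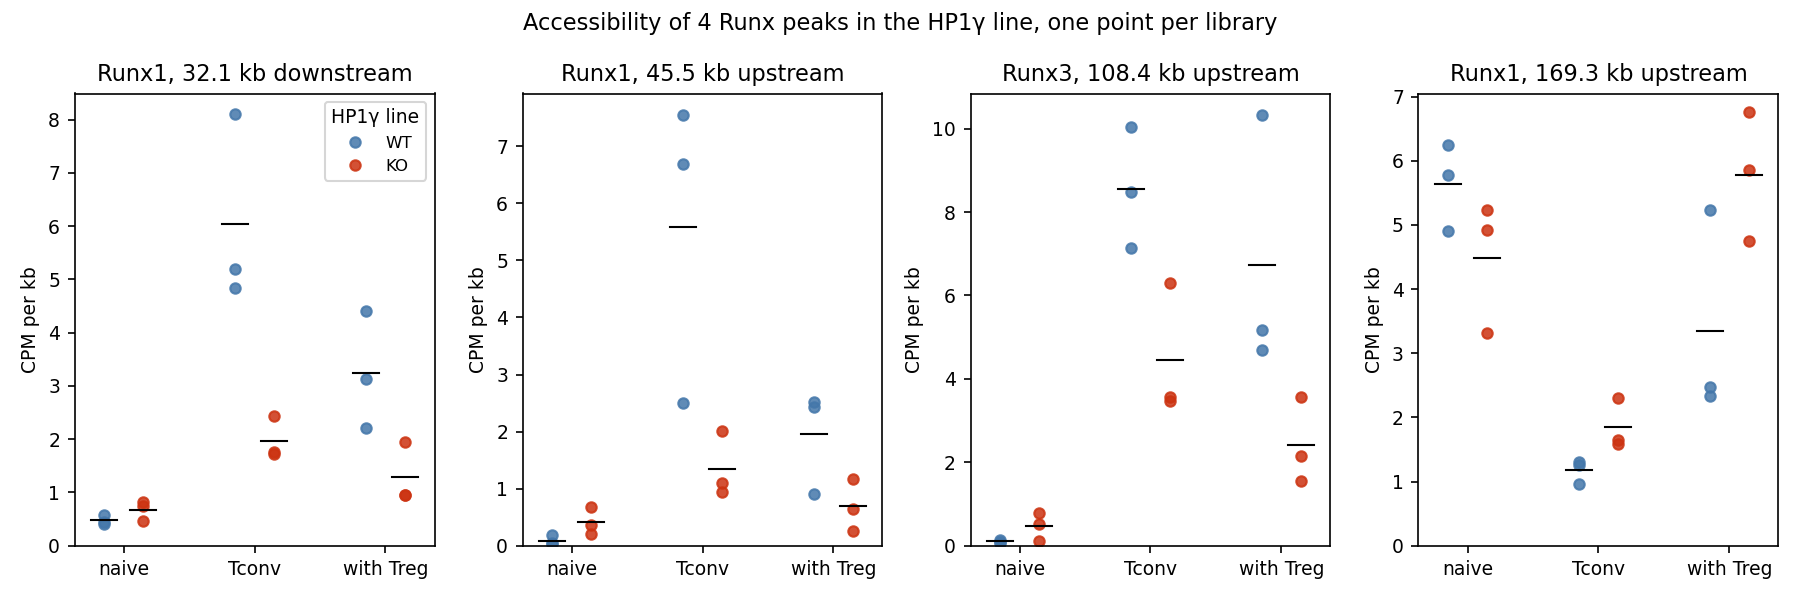
CPM per kb of 3 Runx1 peaks and 1 Runx3 peak in the 6 HP1γ groups, one point per library with a line at the group mean. At the Runx1 peak at 32.12 kb the 3 KO Tconv libraries lie between 1.72 and 2.44, below the WT Tconv libraries at 4.84 to 8.11.

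In the HP1α line few of these peaks were called in the KO. In naive cells edgeR called 0 of 119 (background 0.00559%), with 0 at an unadjusted p under 0.05 and 0 by DESeq2. In Tconv it called 0 (background 0.021%), with 9 at an unadjusted p under 0.05 and 0 by DESeq2, and 2 when KO replicate 1 was left out. With Treg 1 peak was called (background 1.63%), Runx1 at 184.9 kb (chr16:92437441-92438800), at 19.9 CPM per kb in the single kept KO library and 7.05 and 8.83 in WT. Its log2 difference was 1.44 (adjusted p 0.0215), and it was not called without WT replicate 1. With 1 KO library, this test assumes that the lone library varies like those of the other groups, and DESeq2 called 7. The B cell sum was 4.84 CPM per kb in the KO library and 12.3 to 15.9 in WT, the T cell sum 99.5 and 54.7 to 78.8, and the myeloid sum 22.6 and 13.4 to 14.8, and their part was not tested. With all 6 libraries 0 were called (background 0.743%), 14 had an unadjusted p under 0.05 and DESeq2 called 0. The same peak was lower in HP1γ KO with Treg, at -1.11 (adjusted p 0.0331), and the difference between the lines was not tested.

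Few of these peaks were called with Treg against no Treg, and the count was low where few of all peaks were called. In either direction the share of the 119 was 8.4% in HP1α WT, 0% in HP1γ WT and 6.72% in HP1γ KO cells. Beside these, 6.76%, 0.137% and 8.15% of all peaks were called. In HP1α WT cells 10 were called, 1 higher and 9 lower (background 6.76%, of which 4.92% higher and 1.84% lower), and in HP1α KO cells 1 (background 0.55%), Runx1 at 164.3 kb, lower by -1.81 (adjusted p 0.0325), with 3 calls when the first KO Tconv library was left out and 0 without the second. That call also rests on 1 library with Treg, assumed to vary like the other groups. In HP1γ WT cells edgeR called 0 (background 0.137%), with 35 at an unadjusted p under 0.05 and 3 by DESeq2. With the replicate number as a block, in a comparison whose numbers paired the libraries, 2 Runx1 peaks were called lower, at 164.3 kb (-1.21, adjusted p 0.0379) and -45.5 kb (-1.74, adjusted p 0.0206), and leaving out WT Tconv replicate 3 or WT Treg replicate 2 gave 3 and 2 calls. In HP1γ KO cells 8 were called, 6 higher and 2 lower (background 8.15%, of which 6.1% higher and 2.06% lower).

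Among the 10 in HP1α WT cells were the internal Zbtb7b start (-1.28, adjusted p 0.0329), the Cd4 peak at -10.13 kb (-1.24, adjusted p 0.0244) and the proximal Runx3 start (-1.16, adjusted p 0.0101). At the latter, Tconv had 21.6, 17.9 and 13.0 CPM per kb and the 2 kept libraries with Treg 7.59 and 10.7. The count was 1 without WT Tconv replicate 1 and 0 without WT Treg replicate 1, and the B cell sum was 12.3 to 15.9 CPM per kb with Treg and 4.21 to 5.91 without, while the T cell sum was 54.7 to 78.8 with Treg and 76.2 to 104 without and the myeloid sum 13.4 to 14.8 and 20.6 to 23.4. The log2 levels of the 3 HP1α WT libraries with Treg, the one left out included, correlated at 0.695 to 0.851 across peaks, against 0.899 to 0.957 without Treg. The part of these values in the result was not tested.

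The 6 higher peaks in HP1γ KO cells lay at -78.08 kb or further upstream, 5 at Runx1 and 1 at Runx3. The smallest p was at Runx1 -169.3 kb (chr16:92791911-92792670), with 1.65, 2.3 and 1.59 CPM per kb in KO Tconv and 4.75, 5.85 and 6.76 with Treg, without overlap, a log2 change of 1.7 (95% interval 1.16 to 2.25, adjusted p 0.000461). This peak had closed on activation, by -1.69 in HP1α WT (adjusted p 0.000121) and -2.3 in HP1γ WT (adjusted p 2.54e-07). In HP1γ WT cells its change with Treg was 1.35 (0.63 to 2.07, adjusted p 0.0879), and the test of the difference between genotypes gave an adjusted p of 0.743. The Runx3 peak at -100.9 kb (chr4:134778741-134779060) rose by 1.79 (adjusted p 0.0028), from 0.822, 2.14 and 0.526 to 2.87, 3.22 and 4.24. The count was 1 with only the groups compared, 5 by the legacy fit and 3 without KO Tconv replicate 1 or without KO Treg replicate 1. The B cell sum was 4.43 to 5.46 CPM per kb in KO Tconv and 7.1 to 9.35 with Treg, without overlap, and its part was not tested.

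Whether the HP1γ genotype changed the response itself was tested by interaction terms. For Treg, edgeR called 0 of 119 (background 0.0014%), with 9 at an unadjusted p under 0.05 and 0 by DESeq2. For activation it called 0 (background 0.014%), with 14 at an unadjusted p under 0.05, and DESeq2 called 5, all lower in KO, 3 at Runx1 and 2 at Runx3.

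Other genes of CD4 and CD8 lineage choice were described by the same rule, with 684 peaks over 20 genes. On activation 359 were called in HP1α WT cells, 148 of them higher, and 403 in the HP1γ WT line, 154 of them higher. These are 52.5% and 58.9% of the list, beside 42.5% and 46.5% of all peaks (24.9% and 24.5% higher, 17.5% and 22% lower). Of the 20 genes, 2 are given as examples, picked after their values were seen. Runx2, the third Runx gene, opened at 53 and 52 of 63 peaks with none lower. Satb1, a chromatin organiser of T cell development, closed at 61 and 68 of 82 and opened at 2. Between HP1γ KO and WT, 0 of the 684 were called among naive libraries, 26 among Tconv (9 higher, 17 lower) and 116 where Treg were added (42 higher, 74 lower), beside the backgrounds of 0.14%, 3.35% and 11.9%. As examples with Treg, picked after their values were seen, Tox, a factor needed for CD4 lineage development, had 21 of 89 peaks higher and 1 lower, and Il7r, the interleukin 7 receptor, had 8 of 20 lower and none higher, beside 6.48% of all peaks higher and 5.38% lower. Tox thus held 21 of the 42 higher peaks of the list. The median over the 684 with Treg was -0.347, beside -0.0193 over all peaks.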

How the data were processed

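ATAC-seq was measured in 36 libraries of 12 groups. The authors deposited whole-number read counts per consensus peak, with no normalization. Per the study's methods and the submitters' processing notes, reads were trimmed with Trim Galore 0.6.7, aligned with BWA to GRCm39, peaks were called per sample with HMMRATAC and merged, and reads were counted with featureCounts 2.0.3, and 1 read may count for adjoining peaks. All 36 columns matched a sample by title and 0 per-sample columns were left unused.

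Peaks were assigned with the GENCODE annotation of GRCm39. The 6 genes, the lists and the rules were chosen with earlier results of these data known. HP1α (15 kept libraries, and all 18 apart) and HP1γ (18 libraries) were fitted separately after filterByExpr and TMM scaling, which kept all 119 peaks of the 6 genes. Two-sided p-values from the quasi-likelihood test (edgeR 4.0.16 with limma 3.58.1, R 4.3.3) were adjusted by Benjamini-Hochberg over all peaks, and calls needed both an adjusted p below 0.05 and a log2 fold change beyond 1 in size. The prior count for log2 CPM was 2. The test was tested on simulated data. Depth was 1.49 to 96.8 M reads in peaks. Nothing in the labels says that replicates came from separate animals, so p-values measure the spread between these libraries, which may be technical.

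Named peaks were those over a TSS (or the nearest to one) in comparisons that called them, and every called Cd4 peak. Also named were the peak with the smallest p for each gene and family of comparisons, and called peaks of each KO comparison. Of the latter all were named up to 5, otherwise the 3 with the smallest p in each direction. A start peak under none of these rules, such as the canonical Zbtb7b start, was described too and is not among the named values. Other peaks named, called with Treg or beside a named one, were chosen after their values were seen. The motif was searched on both strands. The sequence of 1 further peak and the level of 1 marker are not reported here.

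Same-numbered libraries were checked for pairing by the correlation of their deviations from the group means. Numbers paired the libraries, with each of 3 correlations above 0.1, in naive HP1α cells between genotypes (0.243 to 0.493), in HP1γ cells with Treg between genotypes (0.147 to 0.324) and between HP1γ WT Tconv with Treg and those without (0.2 to 0.286). What a number marks is not stated in the labels. Alternatives were library size alone, loess offsets (span 0.3), no filter, the replicate block, log2 depth as a covariate, only the groups compared, DESeq2 1.42.0, each library left out, and, chosen after seeing the data, the legacy quasi-likelihood fit. Figures used matplotlib 3.10.9 on Python 3.11.15.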

Additional observations from a re-analysis of the deposited data

Results flagged for a closer look

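Among the peaks named for KO against WT with Treg, 2 had log2 differences of opposite sign in the lines. At these, every KO library lay on one side of every WT library in HP1α and on the other side in HP1γ. At Runx1 101.4 kb (chr16:92521501-92521790) the KO to WT log2 difference was 0.65 in HP1α and -1.67 in HP1γ, a gap of 2.32. At Runx3 -108.4 kb (chr4:134771011-134771890) it was 1.13 and -1.49, a gap of 2.63. Neither HP1α difference was called, and the difference between the lines was not tested. Such opposite separation was seen at 13.7% of all peaks and at 13 of the 119, and with 1 KO against 2 WT libraries the HP1α groups did not overlap at 65.2% of all peaks, so the pattern is common at this sample size. The HP1α side rests on 1 kept KO library and 2 WT libraries that held 6 and 0 reads at the first peak and 26 and 2 at the second.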

How the results depend on the processing

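The counts were recomputed under 242 alternatives, and 202 stayed within 1.5 times the count reported. For KO against WT in HP1α with Treg (1 call) the count was 2 with library size alone, 2 with the replicate block, 0 with log2 depth, 0 with only the groups compared and 7 with DESeq2, and with all libraries and loess offsets 1. For HP1γ KO against WT it was 6 by DESeq2 in naive cells (2 reported), 4 by the legacy fit and 2 with only the groups compared in Tconv (9), and 4 with only the groups compared with Treg (14). For Treg against no Treg it was 3 with log2 depth, 4 with only the groups compared and 17 by DESeq2 in HP1α WT (10). In HP1α KO (1) it was 0 with library size alone, loess offsets, the legacy fit, only the groups compared and DESeq2. In HP1γ WT (0) it was 3 with loess offsets, 2 with the replicate block, 1 by the legacy fit and 3 by DESeq2, and in HP1γ KO (8) 5 by the legacy fit and 1 with only the groups compared. Genotype by activation gave 5 by DESeq2 (0). The cause was not tested. The replicate block moved no other count by over 1.5 times. Leaving out each library gave 50 to 60 and 60 to 68 calls on activation in HP1α WT and KO, 69 to 75 and 51 to 61 in HP1γ WT and KO, 0 to 2 for HP1α KO in Tconv, 0 to 1 with Treg, 2 to 2, 4 to 14 and 4 to 20 for HP1γ KO in naive cells, Tconv and with Treg, and for Treg 0 to 12, 0 to 3, 0 to 3 and 3 to 11 in HP1α WT and KO and HP1γ WT and KO. The single kept HP1α KO library with Treg could not be left out. The named values kept their sign in all 455 alternatives and lost their call in 40, none of these at the 2 raised Cd4 peaks. Of the 3 kept HP1α libraries with Treg, 1 had 1.49 M reads, and the KO group is 1 library.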
